A study of Arabidopsis thaliana with 8 samples.

Results

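Aliphatic glucosinolate synthesis was examined through 10 genes of Arabidopsis thaliana, picked by locus identifier among the 18333 genes listed in any count table. They are the regulators MYB28 (AT5G61420), MYB29 (AT5G07690) and MYB76 (AT5G07700), the chain-elongation genes BCAT4 (AT3G19710) and MAM1 (AT5G23010), the core-structure genes CYP79F1 (AT1G16410), CYP79F2 (AT1G16400), CYP83A1 (AT4G13770) and SOT18 (AT1G74090), and the side-chain oxidase gene FMO GS-OX1 (AT1G65860). All 10 had a value in at least 1 table, and 9 had one in all 8 libraries. MYB76 had values in 2 of the 4 genotypes.

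Sequenced RNA came from untreated 28-day-old rosettes of ecotype Col-0, in 4 genotypes with 2 libraries apiece. One is the wild type (WT). The PBL19C3A line is a pbl19 mutant carrying the receptor-like cytoplasmic kinase PBL19 in its C3A form, tagged with GFP and HA and written as driven by the promoter of PBL19, and its labelled phenotype is constitutive immunity. The sid2 line and the eds1 line combine a sid2 or an eds1 mutation with the pbl19 mutation and a construct of that description. Constitutive immunity is also the labelled phenotype of the sid2 line, whereas that of the eds1 line is WT. SID2 is the isochorismate synthase ICS1 of salicylic acid production, and EDS1 is a hub of immune signalling. The labels do not say whether the transgenic lines share 1 insertion, nor whether the libraries of a genotype came from separate plants, so p-values measure the spread between libraries, which may be technical.

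Glucosinolates are sulfur-rich defence compounds of the mustard family, stored away from the myrosinase enzymes that split them into toxic products when tissue is damaged. The aliphatic class of Arabidopsis starts from methionine, whose side chain is lengthened in cycles begun by BCAT4 and the MAM synthases. The P450 enzymes CYP79F1 and CYP79F2 turn the lengthened amino acid into an aldoxime, and CYP83A1 oxidises that further. A sulfotransferase such as SOT18 completes the core, and FMO GS-OX enzymes then oxidise the sulfur of the side chain. MYB28, MYB29 and MYB76 switch on these genes, while a parallel tryptophan branch under MYB34, MYB51 and MYB122 makes the indole glucosinolates.

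Library totals ran from 37373977 to 51202472 counts, and pairs of values are given below in the order library 1, library 2. PBL19 read 7.40 and 10.4 FPKM (fragments scaled for gene length and library size, the authors' level) in WT, 2197 and 1637 in PBL19C3A plants, 626 and 956 in the sid2 line, and 65.1 and 37.9 in the eds1 line. Native and transgene reads cannot be told apart in these values, and the eds1 line also differs from the PBL19C3A line in this transcript. Both sid2 libraries lay below both PBL19C3A libraries for it as well. ICS1 was at 5.02 and 4.45 FPKM in the sid2 line against 72.6 and 57.1 in the PBL19C3A line, and EDS1 at 4.99 and 3.21 in the eds1 line against 55.7 and 58.4. All 4 mesophyll markers were measured at high levels in every library, and none of 3 root and 3 flower markers was listed in any table.

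In WT the members covered a wide range of levels. MAM1 was highest at 163 ± 24.6 FPKM (mean ± SD, n = 2 libraries, as for all such values), followed by CYP83A1 at 63.0 ± 8.32 and BCAT4 at 57.6 ± 9.05, which overlapped with each other. CYP79F1 followed at 25.6 ± 1.21, then SOT18 at 19.3 ± 2.01 and MYB28 at 16.5 ± 2.22, which overlapped as well. MYB29 stood at 9.69 ± 1.56 and FMO GS-OX1 at 4.51 ± 0.379. CYP79F2 and MYB76 were the lowest and overlapped, at 1.53 ± 0.449 and 0.948 ± 0.469. MAM1 had the highest mean of the members in each of the 4 genotypes. Coding sequences of CYP79F1 and CYP79F2, which lie next to each other, are identical at 90.7% of aligned positions in the TAIR10.1 annotation, with a longest shared run of 100 bases. The labels do not say how reads that match both copies were counted, so the values of these genes are uncertain. The next closest pair compared, FMO GS-OX1 and FMO GS-OX3, shares 82.6%.

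**Figure D1:**
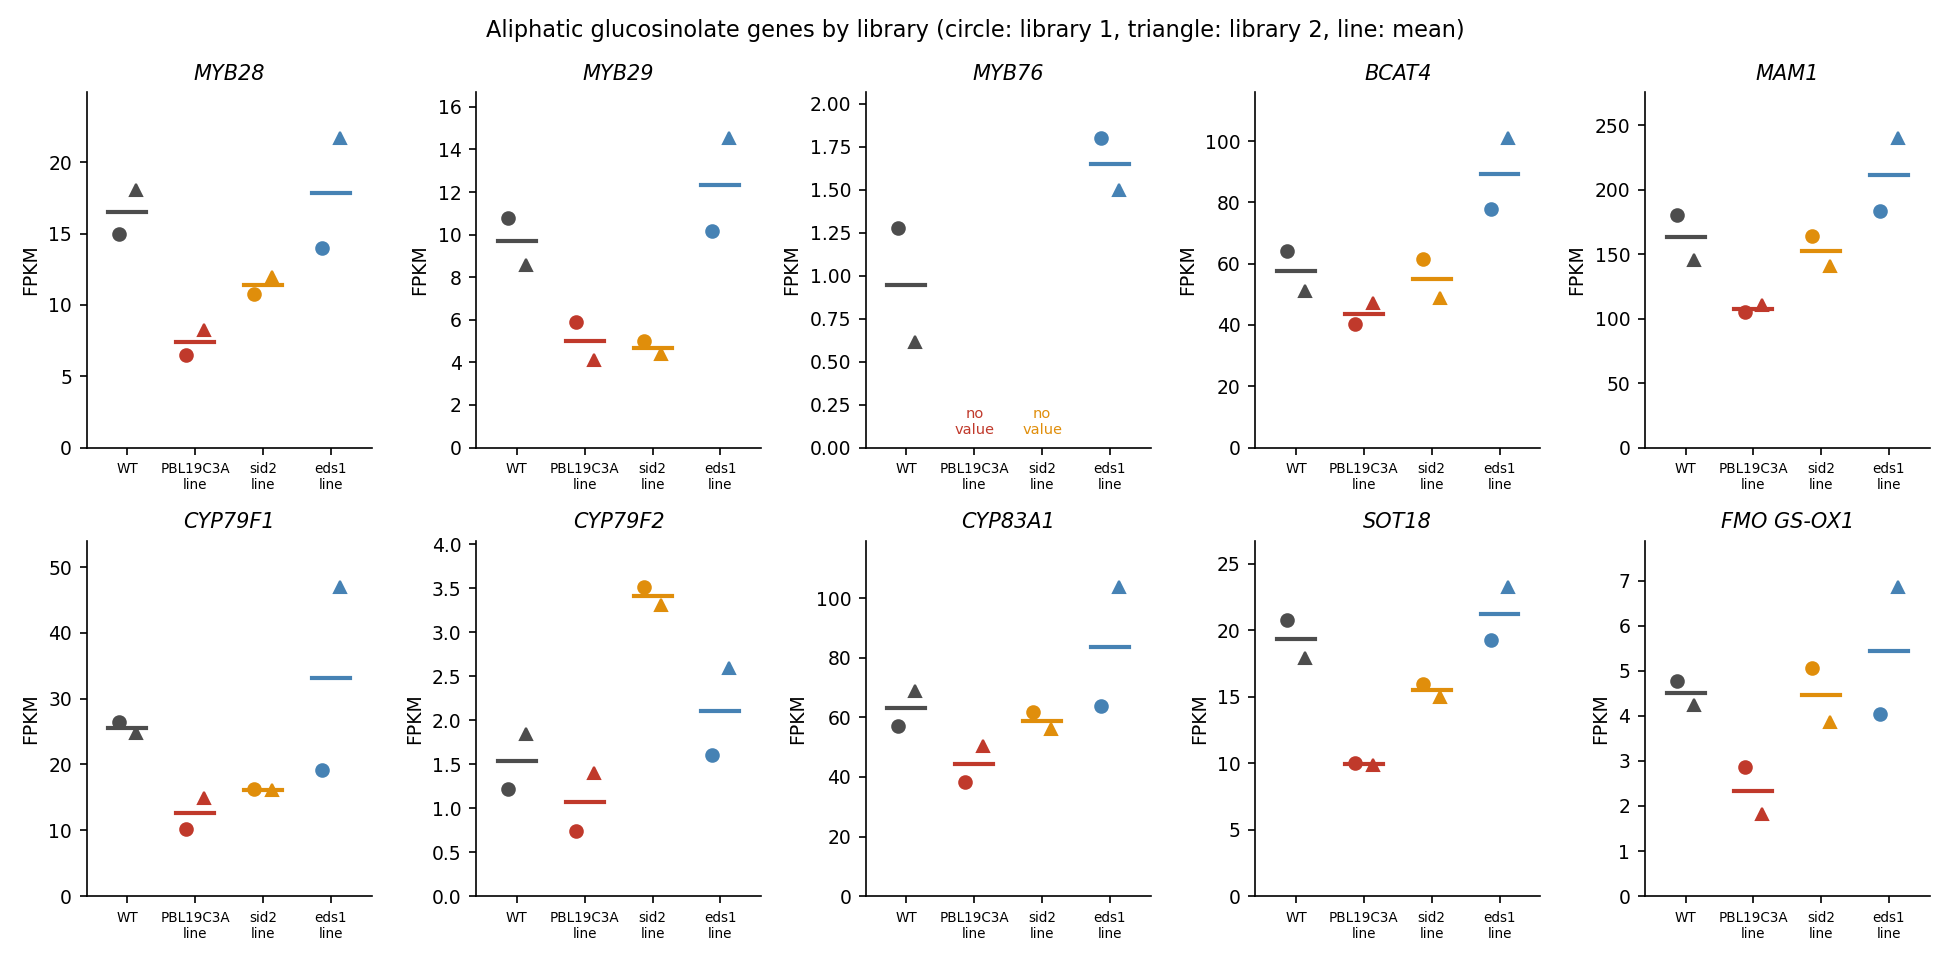
Level of each member in every library, as FPKM on a linear axis from 0, with circles for library 1, triangles for library 2 and a line at their mean. SOT18 sits at 10.04 and 9.90 in the PBL19C3A line against 20.8 and 17.9 in WT, and library 2 of the eds1 line is the highest of the 8 libraries for 8 of the 10 genes.

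The first question was whether the line with constitutive immunity differs from WT in this pathway. All 9 members with values were lower in the PBL19C3A line than in WT on average, and 4 of them passed the test, namely MYB28, MYB29, MAM1 and SOT18. Among all 18048 genes tested in this comparison, 14.9% were called lower. The median log2 fold change of the members was -0.99, against 0.02 over all genes. None was higher. Comparisons that share libraries, such as those against WT or against the PBL19C3A line, are not independent of one another.

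MYB28, the main activator of the branch, read 14.9 and 18.1 FPKM in WT libraries 1 and 2, and 6.49 and 8.28 in the PBL19C3A line. The genotypes do not overlap, and the log2 fold change was -1.20 ± 0.24 (SE; edgeR quasi-likelihood adjusted p = 0.00744). MYB29, which acts beside MYB28, read 10.8 and 8.59 in WT and 5.88 and 4.10 in the PBL19C3A line. Again both WT libraries lay above both of the line, with a log2 fold change of -0.998 ± 0.25 (edgeR adjusted p = 0.0182). MYB76 read 1.28 and 0.616 FPKM in WT, from 64 and 31 counts, and has no value in the PBL19C3A and sid2 tables. Every listed gene reached 1 CPM (counts scaled to library size) in at least 2 of the 4 libraries of its table, and of the WT libraries MYB76 did so in library 1 alone, at 1.38 CPM. If that rule decided what was listed, MYB76 was below 1 CPM in each library of the PBL19C3A and sid2 lines. No difference from these lines was tested for it.

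Of the chain-elongation pair, MAM1, the synthase that adds the carbon unit, read 181 and 146 FPKM in WT and 105 and 111 in the PBL19C3A line. Its libraries do not overlap between the genotypes, and it fell by 0.64 ± 0.18 on the log2 scale (edgeR adjusted p = 0.0278). BCAT4, the aminotransferase that commits methionine to elongation, read 64.0 and 51.2 in WT and 40.2 and 47.1 in the line. The libraries are separate but close, and its log2 difference of -0.44 ± 0.20 did not pass (edgeR adjusted p = 0.12).

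Among core-structure genes, SOT18 alone passed. It read 20.8 and 17.9 FPKM in WT against 10.04 and 9.90 in the PBL19C3A line, 0.501 of the WT level, with a log2 fold change of -0.9975 ± 0.15 (edgeR adjusted p = 0.00225). CYP79F1 read 26.4 and 24.7 in WT and 10.3 and 14.9 in the line, a log2 difference of -1.06 ± 0.39 that missed the threshold (edgeR adjusted p = 0.0696). CYP83A1 read 57.1 and 68.9 against 38.3 and 50.3, at -0.55 ± 0.25 (edgeR adjusted p = 0.131). For both P450 genes the 2 libraries of the line lay below both WT libraries. CYP79F2 overlapped between genotypes, with 1.21 and 1.85 in WT and 0.736 and 1.39 in the line (log2 difference -0.56 ± 0.40). FMO GS-OX1 read 4.78 and 4.24 in WT and 2.86 and 1.81 in the line, a log2 difference of -0.99 ± 0.33 just short of the threshold (edgeR adjusted p = 0.0505).

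The count of 4 depends on single libraries. It was 2 without WT library 1 (SOT18 and MYB28), 2 without PBL19C3A library 1 (SOT18 and MYB29) and 2 without PBL19C3A library 2 (SOT18 and MYB28), but 7 when either eds1 library was left out of the shared fit, with CYP79F1, CYP83A1 and FMO GS-OX1 added. Over the 8 fits that each leave out 1 library, SOT18 passed in 8, MYB28 in 7, MYB29 in 6 and MAM1 in 5. DESeq2 called 6 lower and none higher. The 14.9% of all genes called lower belongs to edgeR on all 8 libraries, not to DESeq2 or these other fits.

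**Figure D2:**
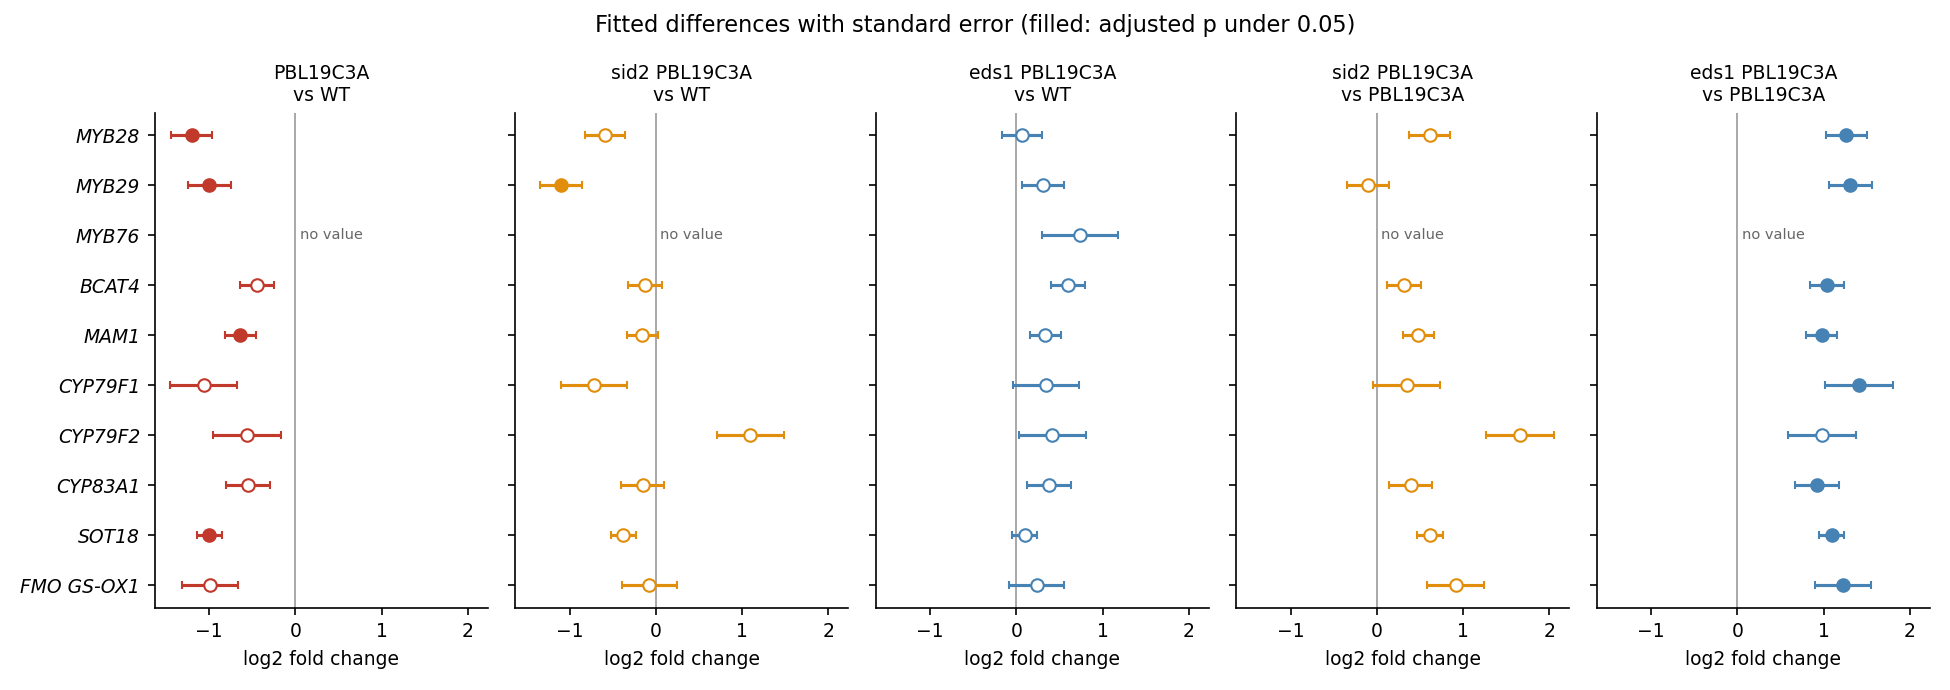
Fitted log2 fold change of each member with its standard error in 5 comparisons, filled where the adjusted p was under 0.05. The members lie below 0 in the PBL19C3A line against WT and between 0.92 and 1.41 in the eds1 line against the PBL19C3A line, while in the sid2 line against the PBL19C3A line CYP79F2 is farthest right at 1.66 and MYB29 lies at -0.10.

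The eds1 line was next compared with the PBL19C3A line. By label they differ in the eds1 mutation, and PBL19 itself fell by 5.22 ± 0.37 on the log2 scale in the eds1 line, so the mutation and the transgene level cannot be told apart. Of 9 members, 8 were higher in the eds1 line, with log2 fold changes from 0.92 to 1.41, and CYP79F2 did not pass. The background was 12.0% of 17358 genes called higher. The members' median was 1.10 against 0.01 over all genes.

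MYB28 read 14.0 and 21.7 FPKM in libraries 1 and 2 of the eds1 line, above both PBL19C3A libraries, a rise of 1.27 ± 0.24 on the log2 scale (edgeR adjusted p = 0.00798). MYB29 read 10.2 and 14.5 and rose by 1.31 ± 0.25 (edgeR adjusted p = 0.0083). For MYB29 the lower eds1 library is still higher than either PBL19C3A library, at 5.88 and 4.10. MAM1 stood at 184 and 240 and rose by 0.98 ± 0.18 (edgeR adjusted p = 0.00724), and BCAT4 at 77.9 and 101 with a rise of 1.04 ± 0.20 (edgeR adjusted p = 0.0085). SOT18 stood at 19.3 and 23.3 and rose by 1.10 ± 0.15 (edgeR adjusted p = 0.00213). All of these were above every PBL19C3A library.

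The remaining enzymes had a wider spread. CYP79F1 read 19.2 and 47.0 FPKM in the eds1 line, a mean of 33.1 ± 19.6, and its log2 fold change was 1.41 ± 0.39 (edgeR adjusted p = 0.0346). That call held in 1 of the 8 fits that leave out a library, the one without eds1 library 1, and the value was 0.60 without eds1 library 2. CYP83A1 read 63.7 and 104 (0.92 ± 0.25, edgeR adjusted p = 0.0326) and FMO GS-OX1 4.03 and 6.86 (1.22 ± 0.33, edgeR adjusted p = 0.0298). CYP79F2 read 1.60 and 2.59, for a log2 difference of 0.98 ± 0.40 (edgeR adjusted p = 0.105).

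Library 2 of the eds1 line stood above library 1 for 9 of 10 members, with a median log2 ratio of 0.57 where the median over all genes above 1 FPKM was -0.05. In WT 3 of 10, in PBL19C3A plants 6 of 9 and in the sid2 line 1 of 9 were higher in library 2. The count was 7 without any 1 of the WT or sid2 libraries, with CYP79F1 lost. Without eds1 library 2, 5 members were called higher (MYB28, MYB29, BCAT4, MAM1 and SOT18). The count was 5 without PBL19C3A library 2 as well, with the same 5 genes, and 2 without PBL19C3A library 1 (MYB29 and SOT18). In the fit of those 4 libraries alone it was 5.

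Against WT, none of the 10 members passed in the eds1 line, where 0.160% of 17534 genes were called in either direction. DESeq2 called none either, and 1 member, BCAT4, had an unadjusted p under 0.05. The fitted differences were all positive, from 0.06 ± 0.23 for MYB28 to 0.74 ± 0.44 for MYB76 on the log2 scale, with BCAT4 at 0.60 ± 0.20 (edgeR adjusted p = 0.9997 for each). MYB76, fitted with only the 4 libraries that list it, read 1.80 and 1.499 FPKM in this line, from 93 and 74 counts. The signs rest partly on eds1 library 2. Without it MYB28, CYP79F1, CYP83A1, SOT18 and FMO GS-OX1 lay below WT, CYP79F1 by most with a log2 value of -0.47. A miss of the threshold does not show that the eds1 line equals WT.

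The sid2 line was compared next, which keeps constitutive immunity per its labels. For PBL19 its log2 difference from the PBL19C3A line was -1.29 ± 0.31, which did not pass (edgeR adjusted p = 0.0845). The sid2 mutation and the transgene level cannot be told apart here either. None of 9 members differed from the PBL19C3A line by the edgeR test, where 2.63% of 17812 genes were called in either direction. Unadjusted p was under 0.05 for 5 of them, and DESeq2 called 2 higher, SOT18 and CYP79F2. The 2.63% is no background for these 2 counts, and DESeq2 called more genes than edgeR in this comparison. No share of all genes at unadjusted p is given here. All but MYB29 were higher on average, with a median log2 difference of 0.48 against -0.01 over all genes.

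MYB29 was the exception. It read 4.98 and 4.41 FPKM in the sid2 line, within the range of the PBL19C3A libraries, and the log2 difference was -0.10 ± 0.25 (edgeR adjusted p = 0.874). Against WT it was lower by 1.10 ± 0.25 on the log2 scale (log2 fold change -1.10, edgeR adjusted p = 0.0251), and edgeR called no other member in that comparison, where 4.05% of 17991 genes were called lower. DESeq2 also called CYP79F2 there, as higher. Between the eds1 and sid2 lines edgeR again called MYB29 alone, 1.41 ± 0.25 higher in the eds1 line (edgeR adjusted p = 0.0143), where 2.39% of 17397 genes were called higher. In that comparison 6 members had an unadjusted p under 0.05, and DESeq2 called CYP79F1, BCAT4 and MYB29. The 2.39% is no background for these counts, which follow other rules. The call against WT was lost without WT library 1 and without either sid2 library. The call between the eds1 and sid2 lines was lost without either sid2 library and without eds1 library 2, and 4 members were called without eds1 library 1.

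MYB28 lay between WT and the PBL19C3A line in the sid2 line, at 10.8 and 11.98 FPKM, with log2 differences of 0.61 ± 0.24 from the PBL19C3A line (edgeR adjusted p = 0.229) and -0.59 ± 0.23 from WT (edgeR adjusted p = 0.13). SOT18 was intermediate as well, at 15.96 and 15.0, above both PBL19C3A libraries and below both WT libraries. Its log2 differences were 0.62 ± 0.15 from the PBL19C3A line (edgeR adjusted p = 0.0777) and -0.38 ± 0.14 from WT (edgeR adjusted p = 0.119). MAM1 at 164 and 141, BCAT4 at 61.4 and 48.8, CYP83A1 at 61.9 and 56.0 and FMO GS-OX1 at 5.05 and 3.87 overlapped the WT libraries. Their log2 differences from WT ran from -0.16 ± 0.18 for MAM1 to -0.07 ± 0.32 for FMO GS-OX1. CYP79F1 stood at 16.2 and 16.1, under both WT libraries (log2 difference -0.72 ± 0.39, edgeR adjusted p = 0.251).

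CYP79F2, the P450 of long-chain substrates, read 3.51 and 3.31 FPKM in the sid2 line, from 354 and 309 counts. No other library exceeded 2.59. The log2 difference was 1.66 ± 0.40 from the PBL19C3A line (edgeR adjusted p = 0.0807) and 1.10 ± 0.39 from WT (edgeR adjusted p = 0.0994). Neither passed edgeR with genotype as the only term, while DESeq2 called both. CYP79F1, its similar neighbour, lay below both WT libraries there.

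**Figure D3:**
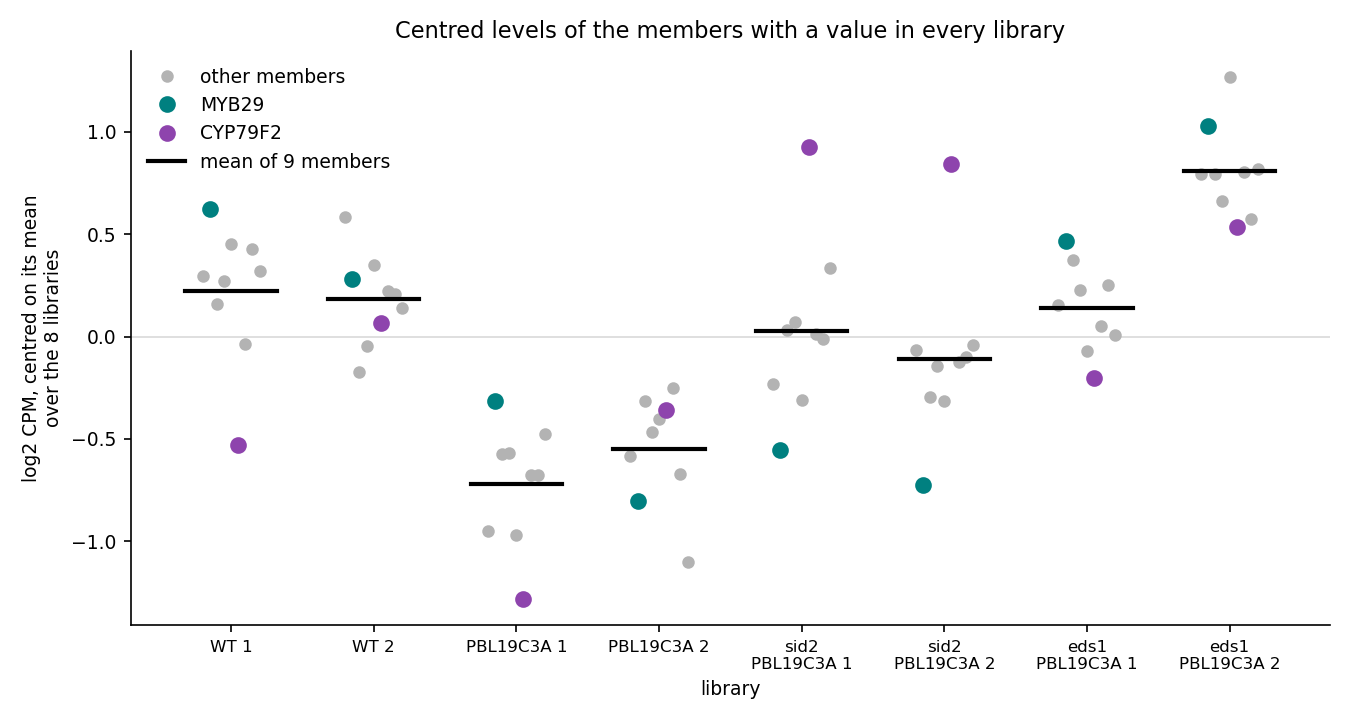
Log2 CPM of the 9 members with values in every library, each centred on its own mean over the 8 libraries, with black bars at the mean of the members. The bars stand at -0.72 and -0.55 in the PBL19C3A line and at 0.81 in library 2 of the eds1 line, and MYB29 and CYP79F2 leave the group in opposite directions in the sid2 line.

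The shape shared by the members was summarised as the mean of their centred log2 CPM over the 8 libraries. It was 0.22 and 0.18 in WT, -0.72 and -0.55 in PBL19C3A plants, 0.03 and -0.11 in the sid2 line, and 0.14 and 0.81 in the eds1 line. MAM1, SOT18 and CYP83A1 lay closest to the mean of the other members, with root mean square differences of 0.14, 0.14 and 0.16. MYB29 at 0.45 and CYP79F2 at 0.67 lay farthest. Of the 17318 other genes with values in every library, the gene nearest to the mean profile was IPMDH1 (AT5G14200), at 0.13. Then came NSP1 (AT3G16400), AT4G20760, ENT6 (AT4G05110), AT3G49900, EXPA10 (AT1G26770), PG2 (AT1G70370) and ATK4 (AT5G27000), all at 0.13 to 0.14. Of 20 further aliphatic-step genes ranked, 5 were among the nearest 100, and the count was still 5 among the nearest 500. The myrosinase genes TGG1 and TGG2, which are no synthesis genes, ranked 16 and 41. These are descriptions over 8 libraries that share their genotype differences.

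The rest of the aliphatic pathway was read from a list of 22 further genes, of which 20 had values. In the PBL19C3A line against WT 8 fell, 1 rose and 11 did not pass, with a median log2 fold change of -0.62, where 14.9% of all genes were called lower and 21.4% higher. These calls are fragile: 3 fell without WT library 1, 3 without WT library 2, 2 without PBL19C3A library 1 and 4 without PBL19C3A library 2. In chain elongation 4 of 8 fell. The isomerase subunit gene IPMI SSU3 (AT3G58990) fell by 1.32 ± 0.29, the plastid carrier gene BAT5 (AT4G12030) by 1.11 ± 0.20, the isopropylmalate dehydrogenase gene IPMDH1 by 0.82 ± 0.25 and the aminotransferase gene BCAT3 (AT3G49680) by 0.71 ± 0.17. MAM3 (AT5G23020), the neighbour of MAM1, did not pass, at 5.61 and 13.7 FPKM in WT and 8.31 and 18.5 in the line (log2 difference 0.44 ± 0.56).

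For the core structure 2 of 7 fell, the glutathione transferase gene GSTU20 (AT1G78370) by 1.18 ± 0.31 and the glucosyltransferase gene UGT74C1 (AT2G31790) by 0.91 ± 0.24. The others, among them SUR1 (AT2G20610) and UGT74B1 (AT1G24100), which also serve indole glucosinolates, did not pass. Of 5 side-chain genes with values, FMO GS-OX3 (AT1G62560) fell by 1.53 ± 0.46 and AOP1 (AT4G03070) by 1.45 ± 0.43, whereas FMO GS-OX5 (AT1G12140) rose by 0.50 ± 0.14. These were called in 4, 3 and 4 of the 8 fits that leave out a library. AOP2 and AOP3 were not listed. In the eds1 line against the PBL19C3A line, 10 of these 20 genes rose and 1 fell, FMO GS-OX5, against 12.0% of all genes higher and 16.2% lower. Only 3 rose without PBL19C3A library 1, 5 without PBL19C3A library 2 and 3 without eds1 library 2. IPMI SSU3 rose by 1.71 ± 0.29, BAT5 by 1.51 ± 0.20, GSTF11 (AT3G03190) by 1.97 ± 0.55, GSTU20 by 1.31 ± 0.31, FMO GS-OX3 by 1.63 ± 0.46 and AOP1 by 1.49 ± 0.43. The call of FMO GS-OX3 held in 3 of 8 fits without a library, with log2 values from 0.75 to 2.20, and that of AOP1 in 1 of 8, with values from 0.60 to 2.06. None of the 20 differed between the sid2 and PBL19C3A lines by edgeR, 2 had an unadjusted p under 0.05, and 1 was called higher with DESeq2.

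**Figure D4:**
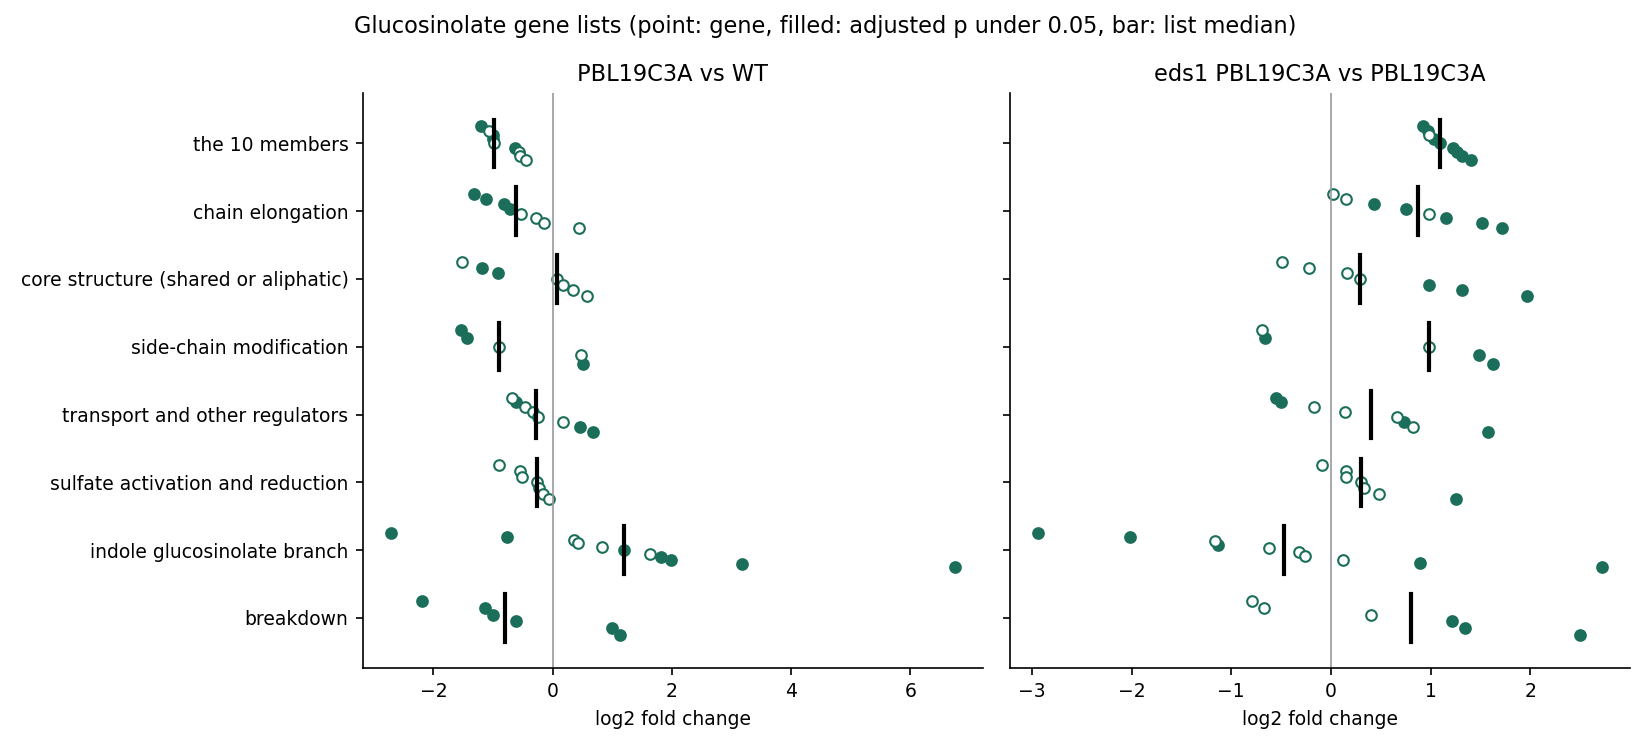
Log2 fold change of each gene of the members and 7 further glucosinolate lists in 2 comparisons, filled where the adjusted p was under 0.05, with bars at list medians. In the PBL19C3A line against WT the members' median is -0.99 and that of the indole branch 1.20, and in the eds1 line against the PBL19C3A line they are 1.10 and -0.47.

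Other regulators and transporters were mixed. Of all genes tested, 14.9% were called lower and 21.4% higher in the PBL19C3A line against WT. Against WT, the sulfur-limitation regulator gene SLIM1 (AT1G73730) rose by 0.67 ± 0.11 and the bHLH gene MYC3 (AT5G46760) by 0.45 ± 0.12 in the PBL19C3A line. MYC4 (AT4G17880), also a bHLH gene, fell by 0.61 ± 0.16, and the other 5 of 8 did not pass. MYC2 (AT1G32640) rose by 1.58 ± 0.45 in the eds1 line against the PBL19C3A line, with 54.1 and 26.2 FPKM in the eds1 libraries, and MYC4 rose by 0.74 ± 0.16. In the same comparison MYC3 fell by 0.55 ± 0.12 and SLIM1 by 0.50 ± 0.105, so 2 of 8 rose and 2 fell. Of all genes, 12.0% were called higher there and 16.2% lower. Of 7 sulfate activation and reduction genes none passed edgeR in the PBL19C3A line against WT, with 1 at an unadjusted p under 0.05 and 1 called lower by DESeq2. ATPS3 (AT4G14680), an ATP sulfurylase gene, alone rose in the eds1 line against the PBL19C3A line, by 1.26 ± 0.38. It was called in 3 of the 8 fits that leave out a library, as was MYC2.

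The list of indole-branch genes, read in the same libraries, was mixed with more rises than falls. Against WT, 5 of its 11 genes rose and 2 fell in the PBL19C3A line, with a median of 1.20. Of all genes tested, 21.4% were called higher in that comparison and 14.9% lower. The regulator gene MYB122 (AT1G74080) rose from 0 and 5 counts in WT to 425 and 124, CYP79B2 (AT4G39950) by 3.17 ± 0.30 and CYP83B1 (AT4G31500) by 1.98 ± 0.25. MYB34 (AT5G60890) instead fell by 2.71 ± 0.43, and the other gene that fell was CYP79B3 (AT2G22330), by 0.77 ± 0.21. In the eds1 line against the PBL19C3A line 3 of 10 indole genes fell and 2 rose. Of all genes, 16.2% were called lower there and 12.0% higher. CYP79B2 fell by 2.93 ± 0.30 and MYB34 rose by 2.72 ± 0.43.

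Parallel steps were set side by side as ratios of FPKM within each library, for 5 pairs chosen with the levels known. CYP79F1 over CYP79B2 was 7.17 and 6.46 in WT, 0.219 and 0.643 in PBL19C3A plants, 0.442 and 0.415 in the sid2 line, and 3.86 and 11.3 in the eds1 line. At the next oxidation, CYP83A1 over CYP83B1 was 1.60 and 1.97 in WT, 0.303 and 0.312 in PBL19C3A plants, 0.404 and 0.632 in the sid2 line, and 1.71 and 3.09 in the eds1 line. For these pairs the aliphatic gene was the higher in every WT and eds1 library and the lower in every PBL19C3A and sid2 library. CYP79B3, also of the indole list, did not give that split against CYP79F1. CYP79F1 was above CYP79B3 in PBL19C3A library 2, at 14.9 against 11.9 FPKM, and below it in eds1 library 1, at 19.2 against 26.8.

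SOT18 and SOT16 (AT1G74100) are sulfotransferase genes that lie next to each other, and SOT16 serves the indole branch. Their ratio was 0.864 and 0.707 in WT, 0.184 and 0.158 in PBL19C3A plants, 0.266 and 0.258 in the sid2 line, and 0.772 and 0.818 in the eds1 line. MYB28 over MYB51 was 2.29 and 1.18 in WT and 0.176 and 0.194 in the PBL19C3A line. It was 0.308 and 0.417 in the sid2 line and 0.563 and 2.02 in the eds1 line, whose library 1 lay below both WT libraries. MYB29 over MYB34 was instead higher in the PBL19C3A line, at 5.31 and 4.89. It was 1.56 and 1.52 in WT, 1.02 and 2.16 in the sid2 line, and 1.31 and 2.75 in the eds1 line. With 2 libraries against 2, an exact two-sided permutation test cannot go below p = 0.333, so these ratios are given without a test.

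**Figure D5:**
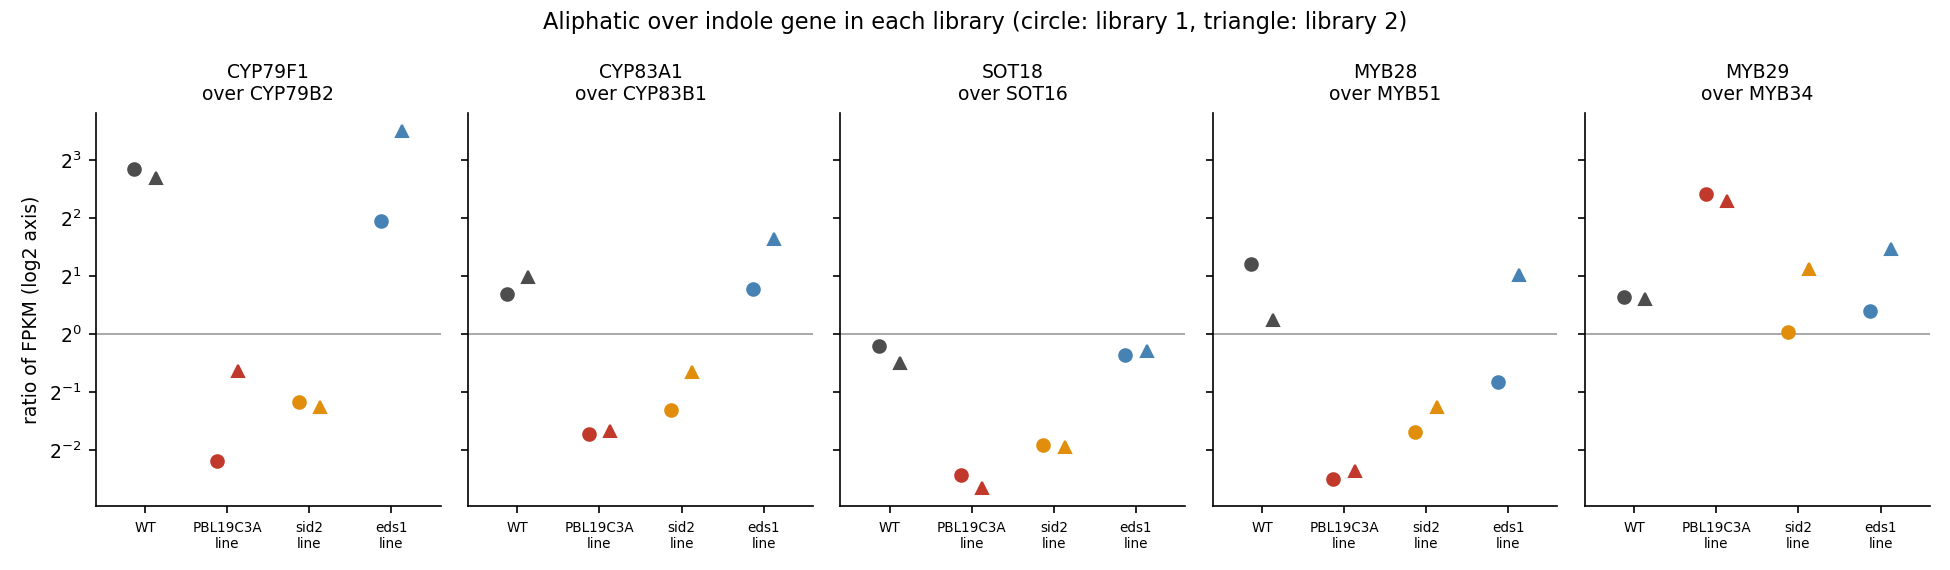
Ratio of the FPKM of an aliphatic gene to that of an indole gene at the same step, per library, on a log2 axis with a line at 1. The first 3 panels place the PBL19C3A and sid2 libraries below all WT and eds1 libraries, and MYB29 over MYB34 is highest in the PBL19C3A line, at 5.31 and 4.89.

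Genes of glucosinolate breakdown changed too. Of all genes tested, 14.9% were called lower and 21.4% higher in the PBL19C3A line against WT. All 6 passed in the PBL19C3A line against WT, 4 lower and 2 higher, while 3 lower and none higher passed without WT library 1 or without PBL19C3A library 1. The epithiospecifier gene ESP (AT1G54040) fell by 2.19 ± 0.28, from 19.6 and 20.1 FPKM to 3.61 and 5.34. The myrosinase gene TGG1 (AT5G26000) fell by 1.13 ± 0.14, while the nitrile-specifier gene NSP5 (AT5G48180) rose by 1.12 ± 0.27 and PEN2 (AT2G44490), the myrosinase of indole glucosinolates, by 0.996 ± 0.26. In the sid2 line against the PBL19C3A line 2 of 6 rose, ESP by 1.42 ± 0.28 and TGG1 by 0.79 ± 0.14, and neither was called when any WT, PBL19C3A or sid2 library was left out. In the eds1 line against the PBL19C3A line 3 of 6 rose, among them ESP by 2.50 ± 0.29 and TGG2 (AT5G25980) by 1.34 ± 0.17. Of all genes, 12.0% were called higher there, and 2.63% were called in either direction between the sid2 and PBL19C3A lines.

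Markers of leaf cell types were read in the same fits. Of all genes tested, 14.9% were called lower in the PBL19C3A line against WT and 12.0% higher in the eds1 line against the PBL19C3A line. In the PBL19C3A line against WT, 5 of 5 guard cell and myrosin cell markers, 4 of 4 mesophyll markers and 2 of 4 phloem markers fell, and without WT library 1 or PBL19C3A library 1 these counts were 3, 2 and 1. Mesophyll markers also numbered 2 without WT library 2 or either sid2 library, and phloem markers 1 without WT library 2 or PBL19C3A library 2. In the eds1 line against the PBL19C3A line 4, 2 and 1 of them rose, with no phloem call without eds1 library 2 or either PBL19C3A library, 2 without eds1 library 1, and 1 mesophyll call without PBL19C3A library 1. Summed FPKM of the guard and myrosin cell markers was 1825 and 1706 in WT, 771 and 922 in PBL19C3A plants, 1515 and 1376 in the sid2 line, and 1865 and 2138 in the eds1 line. Nearly all of that sum is TGG1 and TGG2 of the breakdown list. The other 3 markers, KAT1, MYB60 and FAMA, summed to 32.3 and 30.7 in WT, 12.6 and 16.3 in PBL19C3A plants, 22.4 and 21.3 in the sid2 line, and 27.7 and 34.5 in the eds1 line. Of the 5 guard cell and myrosin cell markers, 1 was called lower in the sid2 line than in WT, where 4.05% of all genes were called lower. It was the guard cell channel gene KAT1, at 4.66 and 5.07 against 11.3 and 13.7 FPKM (log2 fold change -1.42 ± 0.21, edgeR adjusted p = 0.00536). MYB60, FAMA, TGG1 and TGG2 did not pass, with log2 differences from -0.34 ± 0.17 for TGG2 to -0.18 ± 0.22 for FAMA. For mesophyll the summed FPKM was 42904 and 40191 in WT, 24828 and 27552 in PBL19C3A plants, 31391 and 32017 in the sid2 line, and 36446 and 41451 in the eds1 line. The phloem sum ran from 193 to 217 in the PBL19C3A line and from 270 to 278 in WT. No marker of these lists was at 0. Fewer cells of a type and less RNA per cell cannot be told apart in whole rosettes, and the part of cell composition in the members' levels was not tested.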

How the data were processed

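The deposited files give whole-number counts of reads and, separately, FPKM values for every listed gene in each library, per the file headers. Per the submitters' processing notes, HISAT2 2.0.4 and TAIR10 were used. The counting tool, strand setting and FPKM denominator are not given in the sources used here. The count tables number 3, each with WT and 1 line. The 284202 values that appear more than once were compared, and 0 differed. Every listed gene reached 1 CPM in at least 2 of the 4 libraries of its table, and each of the 16950 genes at that level in WT libraries 1 and 2 was in every table.

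Tests on the counts used edgeR 4.0.16 under R 4.3.3 (quasi-likelihood test, TMM scaling, filterByExpr, Benjamini-Hochberg adjustment over all genes of a comparison, threshold 0.05), with the 8 libraries in 1 fit and genotype as the only term. A gene without values in some table was fitted with the libraries that list it. The test was first checked on simulated counts for the PBL19C3A line against WT, fitted with the libraries of those groups alone. Every gene had the same spread, and changes were put only in genes above a minimum level. The test recovered 60 of 100 genes changed 2-fold and 100 of 100 changed 4-fold, and called 7 unchanged genes. These figures do not describe the fit of all 8 libraries or genes of unequal spread. Alternatives were DESeq2 1.42.0, RLE scaling, no filter, only the groups compared, the replicate number as a block, and each library left out. Counts of further gene lists without each library were added after seeing the data. Shares of all genes called are from the edgeR test at adjusted p with all 8 libraries. None is given for unadjusted p or for the alternatives.

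The members, lists and tests were chosen with earlier results of these data known. Every member is named. From each further list, the genes named are those past the threshold with the largest changes, up to 4 in the PBL19C3A line against WT and up to 2 in the eds1 and sid2 lines against the PBL19C3A line. MAM3, SUR1, UGT74B1, SOT16, MYB51, CYP79B3, KAT1 and the sulfur-response and sulfate genes of the closing section were named after their values were seen. Gene names, neighbours and coding identity come from the TAIR10.1 annotation, whose coordinates are not used here.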

Additional observations from a re-analysis of the deposited data

How the results depend on the processing

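With 2 libraries a group, leaving 1 out assumes that the lone library varies like the other groups. Over the 8 such fits the members called numbered 2 to 7 in the PBL19C3A line against WT, 0 to 2 in the sid2 line against WT, 2 to 8 between the eds1 and PBL19C3A lines, 0 to 4 between the eds1 and sid2 lines, and 0 in the other comparisons. Genes called ranged from 3729 to 6287, from 1187 to 2843, from 2479 to 4543 and from 617 to 1398 in the first 4 of these, and from 24 to 390 between the sid2 and PBL19C3A lines. Signs turned in 13 uncalled member values. In the sid2 line against WT the log2 value of BCAT4 ranged from -0.29 to 0.051 (0.051 without WT library 1, 0.03 without sid2 library 2), MAM1 from -0.30 to 0.01 and FMO GS-OX1 from -0.28 to 0.10 (0.016 without WT library 1). In the eds1 line against WT the ranges were -0.29 to 0.35 for MYB28 (-0.08 without WT library 1), -0.47 to 0.87 for CYP79F1, -0.045 to 0.71 for CYP83A1, -0.066 to 0.26 for SOT18 and -0.22 to 0.59 for FMO GS-OX1, each lowest without eds1 library 2. MYB29 ranged from -0.32 to 0.16 between the sid2 and PBL19C3A lines, and FMO GS-OX1 from -0.15 to 0.66 between the eds1 and sid2 lines. DESeq2 called 2 members in the sid2 line against WT, 2 between the sid2 and PBL19C3A lines and 3 between the eds1 and sid2 lines, with 92 genes in the eds1 line against WT, 1377 between the sid2 and PBL19C3A lines and 2573 between the eds1 and sid2 lines. With only the groups compared, 2 members were called in the sid2 line against WT and 5 between the eds1 and PBL19C3A lines, with 17 genes in the eds1 line against WT and 848 between the eds1 and sid2 lines. With the replicate block, 5 members were called in the PBL19C3A line against WT (CYP79F1 added), all 9 between the eds1 and PBL19C3A lines (CYP79F2 added), 3 in the sid2 line against WT (MYB28 and CYP79F2 added), 1 between the sid2 and PBL19C3A lines (CYP79F2, of 924 genes) and 2 between the eds1 and sid2 lines (of 2471 genes). Where no total of genes called is printed for an alternative fit, its count of members has no background here. Same-numbered libraries deviated together, with correlations from 0.115 to 0.408 over 13969 genes, but the labels do not say what a number marks. RLE scaling changed 1 member call and dropping the filter none. The cause of these changes was not tested.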

Other observations

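Values of 3 sulfur-response genes, chosen after their levels were seen, follow by library, with no test. SDI1 (AT5G48850), which in Arabidopsis represses aliphatic glucosinolate genes when sulfur is short, read 0.482 and 9.05 FPKM in libraries 1 and 2 of WT, 0.420 and 2.89 in the sid2 line and 0.399 and 5.92 in the eds1 line, and the PBL19C3A table has no value for it. SDI2 (AT1G04770) read 1.79 and 11.7 in WT, 4.95 and 6.77 in PBL19C3A plants, 3.84 and 9.61 in the sid2 line and 2.08 and 8.23 in the eds1 line. The adenylylsulfate reductase gene APR2 (AT1G62180) read 29.7 and 76.2 in WT, 41.5 and 34.5 in PBL19C3A plants, 41.1 and 53.5 in the sid2 line and 23.5 and 60.3 in the eds1 line. Within the sulfate list, APR1 (AT4G04610) read 4.33 and 17.6 FPKM in WT, APR3 (AT4G21990) 6.25 and 21.3, and ATPS3 8.63 and 14.6. In the PBL19C3A line library 2 was instead the lower for each, at 11.7 and 7.60, 10.4 and 8.89, and 6.71 and 6.09. In the sid2 line library 2 was lower for ATPS3 but higher for APR1 and APR3, and in the eds1 line it was higher for each. The WT libraries were closer for ATPS1 at 304 and 329, APK1 at 26.97 and 29.4 and APK2 at 26.9 and 29.3 FPKM.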
